A study of Mus musculus with 2 samples.

Results

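The cells described here are 410 macrophages of the mouse dorsal meninges, taken from 5816 cells that passed filters out of 7048 barcodes. They were chosen by measured values. A cell was kept with 150 to 5000 detected genes, at most 20% mitochondrial and at most 5% hemoglobin unique molecular identifiers (UMIs, counts of captured RNA molecules). A kept cell was called a C1q cell with at least 5 UMIs of C1qa, C1qb and C1qc together, these making up at least 0.5% of its UMIs, and no UMI of Cd79a (B cells) or Cd3e (T cells). Of the 1052 C1q cells, the 410 with a UMI of at least 2 of the 5 genes Lyve1, Folr2, Cbr2, Cd209f and Cd209g are the members, and the other 642 serve as the comparison. The levels of these 8 genes in the members are therefore a description and not a finding.

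The series holds 2 single-cell RNA-seq libraries from male wild-type C57BL/6 mice (C57BL/6J in the study's methods), 1 after a mild closed-skull traumatic brain injury (TBI) and 1 after a Sham procedure, both taken 1 week later from mice of 10 weeks (10 to 12 in another label). Each library pools the digested dorsal meninges of 5 mice, sorted for live DAPI-negative single cells and made with the 10X 3′ version 2 chemistry. Because there is 1 library per group, mouse and library cannot be told apart from injury, and no test between the groups was possible. The Sham library held 2699 barcodes and 9527334 UMIs and gave 128 members, and the TBI library held 4349 barcodes and 15011079 UMIs and gave 282.

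Border-associated macrophages are the tissue-resident macrophages of the brain's coverings, perivascular spaces and choroid plexus. They take up material from cerebrospinal fluid and blood through scavenger and lectin receptors, and those high in Lyve1, Folr2, Cd163 and Mrc1 are usually distinguished from border macrophages high in MHC class II and Ccr2, which are replaced more from blood monocytes. Among the genes of the rule, Lyve1 encodes a hyaluronan receptor, Folr2 a folate receptor, Cbr2 a carbonyl reductase, and Cd209f and Cd209g encode C-type lectins of the DC-SIGN family, while C1qa, C1qb and C1qc encode the 3 chains of the complement component C1q.

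Cd209f and Cd209g are close relatives, and the region around their starts is shown because the pair was mostly detected in the same cells. Cd209f (ENSMUSG00000051906) lies at chr8:4102787-4105835 on the minus strand of GRCm38, and Cd209g (ENSMUSG00000079168) at chr8:4134098-4137707 on the plus strand. The RefSeq promoter windows, 250 bases before to 50 bases after the start of transcription (GRCm38.p6), are given 5′ to 3′ on each gene's own strand, chr8:4105715-4106014 for Cd209f and chr8:4134486-4134785 for Cd209g. Capitals mark the longest run of bases that is identical in both.
Cd209f: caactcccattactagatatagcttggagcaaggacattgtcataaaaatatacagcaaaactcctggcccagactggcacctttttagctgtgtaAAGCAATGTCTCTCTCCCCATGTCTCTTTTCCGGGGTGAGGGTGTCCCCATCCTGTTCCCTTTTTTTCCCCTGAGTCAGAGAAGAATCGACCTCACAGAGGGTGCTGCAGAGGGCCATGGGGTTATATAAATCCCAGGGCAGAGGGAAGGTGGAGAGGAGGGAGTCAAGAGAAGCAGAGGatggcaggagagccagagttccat
Cd209g: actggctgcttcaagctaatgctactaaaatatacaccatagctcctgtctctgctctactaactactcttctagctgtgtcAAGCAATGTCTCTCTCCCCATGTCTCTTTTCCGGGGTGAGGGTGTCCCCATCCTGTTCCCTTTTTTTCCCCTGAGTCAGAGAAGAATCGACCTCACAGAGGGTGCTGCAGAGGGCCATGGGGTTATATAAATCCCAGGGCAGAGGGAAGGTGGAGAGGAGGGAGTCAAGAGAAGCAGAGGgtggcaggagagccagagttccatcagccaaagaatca

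The identical run was 180 bases long, from -154 to 26 in Cd209f and from -168 to 12 in Cd209g, counted from the start of transcription. Over the best local alignment, 212 of 214 columns (99.1%) were identical. Among the other 20 pairs of the 7 Cd209 promoters in the table (Cd209a to Cd209g), the longest identical run was between 7 and 17 bases. The table held a promoter for 6 of the 8 genes of the rule. The likeness reaches the transcripts, since 1 of 5 annotated Cd209f transcripts shared 77.8% of the 50-base words in its last 500 bases with Cd209g. In the other direction, 0 of the 692 words in the last 500 bases of the 2 Cd209g transcripts were shared. Reads of the shared words in a 3′ library thus do not tell the 2 genes apart, and the separate counts of the pair are uncertain to that extent. Whether such reads were counted for either gene or dropped was not tested.

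Detection of the pair was read over all C1q cells, where the limit of 2 marker genes had not been applied. In the Sham library 48 of the 56 cells with a Cd209g UMI (85.7%) also had one of Cd209f, against 7.46% of the cells without Cd209g. In the TBI library it was 93 of 102 (91.2%) against 6.71%. In the other direction, 70.6% of Sham and 68.9% of TBI cells with Cd209f had Cd209g, against 3.13% and 1.52% of those without. Cells with Cd209g were not the deeper ones, as the median was 2490.5 UMIs with and 2988 without Cd209g in Sham and 2770 and 4519.5 in TBI. How much of the overlap comes from shared sequence was not tested.

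Lyve1 was the rarest of the 5 and sat inside the Folr2 and Cbr2 cells. Of the C1q cells with a Lyve1 UMI (27 in Sham, 64 in TBI), 81.5% and 82.8% had Folr2 and 92.6% and 96.9% had Cbr2. Cd209f was found in 44.4% and 31.3% of them, and Cd209g in 48.1% and 25%. Of the cells with Folr2, 21.8% and 22.1% had Lyve1 and 40.6% and 35.8% had Cd209f. Cells with Lyve1 had more UMIs than cells without it, with medians of 5217 and 2484 in Sham, so depth moves with these shares.

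**Figure D1:**
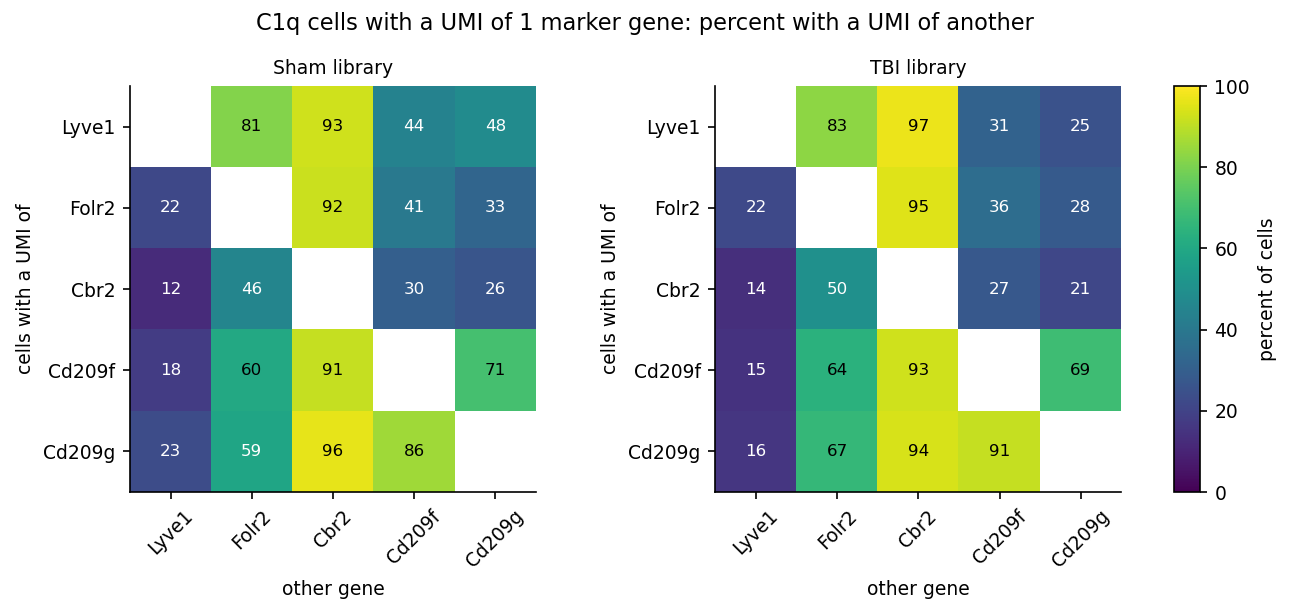
Percent of the C1q cells with a UMI of the gene in the row that also had a UMI of the gene in the column, in the Sham and the TBI library. Cd209g cells also had Cd209f in 85.7% (Sham) and 91.2% (TBI), while Cbr2 cells had Lyve1 in the smallest shares.

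Within the members, Cbr2 was detected in 96.1% of Sham and 98.2% of TBI cells, Folr2 in 75.8% and 81.2%, Cd209f in 52.3% and 46.1%, Cd209g in 43.0% and 35.8%, and Lyve1 in 19.5% and 21.99%. The largest group of members sat at the limit, with 61 Sham and 129 TBI cells at 2 marker genes, 32 and 84 at 3, 26 and 56 at 4, and 9 and 13 at all 5. Just outside it, 89 Sham and 197 TBI cells of the C1q cells had 1 marker gene, and 107 and 249 had none. The C1q limits cut fewer cells, since 4 and 11 cells with 2 markers were left out for under 5 C1q UMIs, and 3 and 2 members had exactly 5. The limit of 0.5% left out 1 Sham and 6 TBI cells with 2 markers, and 12 and 18 members lay under 1%. The median member had 57.5 C1q UMIs in Sham and 85 in TBI, a share of 2.13% and 2.17% of its UMIs. Most members were thus not at the edge of the C1q limits, while about as many lay at the edge of the marker limit as within it.

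Free RNA in the droplets gives UMIs in cells that do not express a gene, and B cells (at least 2 Cd79a UMIs, 449 in Sham and 425 in TBI, medians of 3192 and 2734 UMIs) were read the same way. Cbr2 was found in 0.445% and 1.18% of them, Folr2 in 0 of 449 (which allows a share of up to 0.668%) and in 1.18%, Cd209f in 0 of 449 and in 0.706%, and C1qa in 1.78% and 4.47%. Their UMIs lay in few B cells, with 126 C1qa UMIs in 8 Sham and 152 in 19 TBI cells. Predicted doublets made up 8 and 15 of the B cells. The part of doublets and free RNA in these shares was not tested, and the rule itself fixed the detection of its genes in the members. The general macrophage genes, which the rule did not use, were present in both libraries, with Csf1r, the receptor for colony stimulating factor 1, at 2148 counts per 1000000 summed UMIs (CPM) in Sham and 2058 in TBI members. Adgre1, which encodes F4/80, stood at 596 and 595 CPM, and the lysosomal glycoprotein gene Cd68 at 917 and 851. B cells had an Adgre1 UMI in 1.56% and 1.88%. Of the same set of genes, Fcgr1 stood at 394 and 357 CPM in the members. Mertk was low, at 51.5 and 37.2 CPM, with a UMI in 14.1% and 11.3% of them. The label as macrophages was thus met by Csf1r, Adgre1, Cd68 and Fcgr1, genes outside the rule, and only weakly by Mertk. Microglia, the macrophages of the brain itself, share many genes with border macrophages, and 11 of 12 microglia markers had UMIs in the members of both libraries. They summed to 3647 CPM in Sham and 3003 in TBI members against 2893 and 3087 in the other C1q cells. Fcrls, an Fc receptor-like gene, was the most abundant at 1615 and 1394 CPM. Of the 9 with at least 100 UMIs, Siglech and Fcrls were higher and Tmem119 lower past 2-fold in the members of both libraries, where 2.36% of 5554 genes were higher and 1.89% lower. The marker at 0 in both was Sall1, a transcription factor of microglia, and the part of microglia among the members was not tested. Of 8 markers of lymphatic endothelium, which also expresses Lyve1, 7 were at 0 in Sham and 5 in TBI members, Prox1, its defining factor, in both.

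The members made up 6.27% (95% interval 5.25 to 7.40) of the filtered cells in Sham and 7.47% (6.65 to 8.36) in TBI, a difference of 1.21 percentage points (-0.195 to 2.55). This and all further intervals are exact binomial or Poisson-based ones, or made from them, and cover counting error only, not the spread between mice. Among C1q cells, which themselves made up 15.9% and 19.3% of filtered cells, the members were 39.5% (34.1 to 45.1) in Sham and 38.7% (35.2 to 42.4) in TBI, a difference of -0.77 points (-7.36 to 5.71). So the share of macrophages that carried these markers differed by less than the counting error.

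Depth matters to a rule that asks for single UMIs. The median member had 2353 UMIs and 1067 genes in Sham and 3783.5 UMIs and 1625 genes in TBI, and the UMIs per member ran from 502 to 16252 and from 548 to 16432. When each cell was thinned to 1000 UMIs and shallower cells were left out (28 Sham and 25 TBI members), 70 of 251 C1q cells in Sham (27.9%) and 167 of 649 in TBI (25.7%) met the rule, a difference of -2.16 points (-9.004 to 4.35). By depth, the share in Sham and TBI was 37.3% and 29.1% of cells with 500 to 1000 UMIs, 47.1% and 42.3% up to 2000, 47.7% and 52.2% up to 4000, 39.7% and 37.7% up to 8000, and 28.1% and 29.8% above. Neither library was higher throughout, and the deepest cells, which had the best chance to show a marker, held the smallest or next to smallest share in both.

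Next it was asked what else the members carried. Against the other C1q cells of their own library, they had more of the listed genes of resident border macrophages. They had less of most monocyte and MHC class II genes, in both libraries. Of a list of 28 measured border macrophage genes outside the rule, 22 were higher past 2-fold in both libraries and 28 were above equality, where 2.36% of all 5554 genes with at least 100 UMIs were higher past 2-fold. The median log2 ratio of the list was 2.05 in Sham and 1.68 in TBI, beside 0.14 and 0.12 over all genes. Here and below, list medians are over genes with at least 10 UMIs and counts past 2-fold over genes with at least 100. The list came from known biology of these cells and was chosen with earlier results known, so it describes and does not test the choice of cells.

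Among receptors and lectins, Mrc1, the mannose receptor, was at 2138 CPM in Sham and 1922 in TBI members against 670 and 802 in the other C1q cells, log2 ratios of 1.67 (1.53 to 1.82) and 1.26 (1.17 to 1.35). Cd163, the scavenger receptor for hemoglobin and haptoglobin complexes, stood at 376 and 291 against 52.2 and 50.9 CPM, ratios of 2.84 and 2.51. Stab1, a receptor that clears modified proteins and dying cells, stood at 1375 and 1251 against 314 and 424 CPM. All were higher in the members of either library. A further lectin of the DC-SIGN family, Cd209b, had one of the largest ratios of all, 4.31 in Sham and 4.22 in TBI (113 and 71.2 against 5.22 and 3.60 CPM). Colec12, a collectin scavenger receptor, followed with 3.22 and 4.04, and Timd4, a receptor for phosphatidylserine on dying cells, with 2.86 and 3.27. The last 2 were low genes, with 46 and 51 UMIs of Colec12 and 32 and 57 of Timd4 in the members. A separate list of scavenger and efferocytosis genes, which holds several of these, was mixed. Of 19 measured, 6 were higher and 1 (Havcr2) lower past 2-fold in both libraries, beside 2.36% and 1.89% of all genes. In both libraries 12 were above and 5 below equality, beside 46.6% and 23.7% of all genes.

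Of secreted proteins, Pf4 (platelet factor 4, a chemokine) was the most abundant on the list, at 3578 CPM in Sham and 3621 in TBI members against 929 and 1131. F13a1, which encodes the coagulation factor XIII subunit that macrophages also make, stood at 1664 and 1560 against 342 and 337 CPM. The Gas6 gene, for the bridging ligand of the receptors Axl and Mertk, had ratios of 2.07 and 1.87, and Igf1, a growth factor, 2.06 and 1.60. The chemokine genes Ccl8 and Ccl24 were also far higher in the members, by 4.04 and 2.08 for Ccl8 and by 3.78 and 2.72 for Ccl24. These ratios for Ccl8 and Ccl24 were smaller in the TBI library. In all, 3 of 14 chemokine genes were higher past 2-fold in both libraries (Ccl8, Ccl24 and Pf4), beside 2.36% of all genes, and 2 were lower, beside 1.89%, Ccl5 and Cxcl10, the latter by ratios of -2.94 and -2.81.

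Several complement and iron genes were higher in the members. Of 13 measured complement genes other than C1q, 5 were higher past 2-fold in both libraries, where 2.36% of all genes were, and 1, Itgax, was lower, where 1.89% were. The early component genes C2 (2.42 in Sham, 2.61 in TBI) and C4b (3.53 and 2.42), the regulator gene Cd55 (3.53 and 2.83), and properdin, Cfp (1.64 and 1.23), were among the 5. Of 14 genes of iron and heme handling, 5 were higher and none lower past 2-fold, and 12 were above equality in both libraries, where 46.6% of all genes were. The 5 were Slc40a1, the iron exporter ferroportin (4.05 and 2.06), Blvrb, a biliverdin reductase (1.49 and 1.24), Cp, ceruloplasmin (2.34 and 1.24), Ncoa4, the receptor that sends ferritin to the lysosome (1.35 and 1.45), and Cd163.

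Genes of recruited macrophages and monocytes went the other way. Of 14 measured, 12 were lower past 2-fold in both libraries, where 1.89% of all genes were, and the list's median log2 ratio was -2.41 in Sham and -1.58 in TBI. With the genes at 0 UMIs in the members set to their bound, the medians were -2.41 and -1.48. Ccr2, the chemokine receptor of monocytes, stood at 125 and 157 CPM in the members against 732 and 641, ratios of -2.54 (-2.95 to -2.18) and -2.03 (-2.25 to -1.82). The Lgals3 gene, galectin 3, had ratios of -2.78 and -1.96, and Slamf9 -2.41 and -2.76. Lyz1 had 0 UMIs in the Sham members, a level at least 24.6-fold lower than in the other C1q cells of that library at a floor of 3 UMIs over the members. The exceptions within 2-fold were Cx3cr1, the fractalkine receptor (-0.26 and -0.41), and the lysozyme gene Lyz2 (-0.32 and -0.02).

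Over all genes outside the rule, 131 of 5554 were higher and 105 lower past 2-fold in both libraries. Leaving out the genes of the rule, and among genes with a UMI in at least 10% of the cells where they were higher, in both libraries, the 12 with the largest ratios, taking the smaller of the 2 libraries for each, were Cd209b, Colec12, Cela1, Timd4, Ccl24, Tln2, Pla2g2d, Cd163, Ltc4s, Cd38, Mmp9 and C4b. Among them Ltc4s, leukotriene C4 synthase, was the most abundant, at 658 CPM in Sham and 597 in TBI members against 111 and 105, while Pla2g2d, a secreted phospholipase, stood at 242 and 182 against 26.1 and 28.4. By the same limit, which left out Cxcl10, the 12 with the smallest ratios were Sirpb1a, Itgax, Klra2, Havcr2, Sh2d1b1, Bcl2a1d, Slamf9, Sirpb1b, Lsp1, Cd9, Napsa and Bcl2a1a. Sirpb1a, a signal regulatory receptor, had 0 UMIs in the Sham members and 3 in the TBI members against 97 and 187 in the other C1q cells, at least 17.0-fold lower in Sham. Sirpb1a and Sirpb1b, and Bcl2a1a and Bcl2a1d, are near-identical paralogs, whose reads may be split by the counting.

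**Figure D2:**
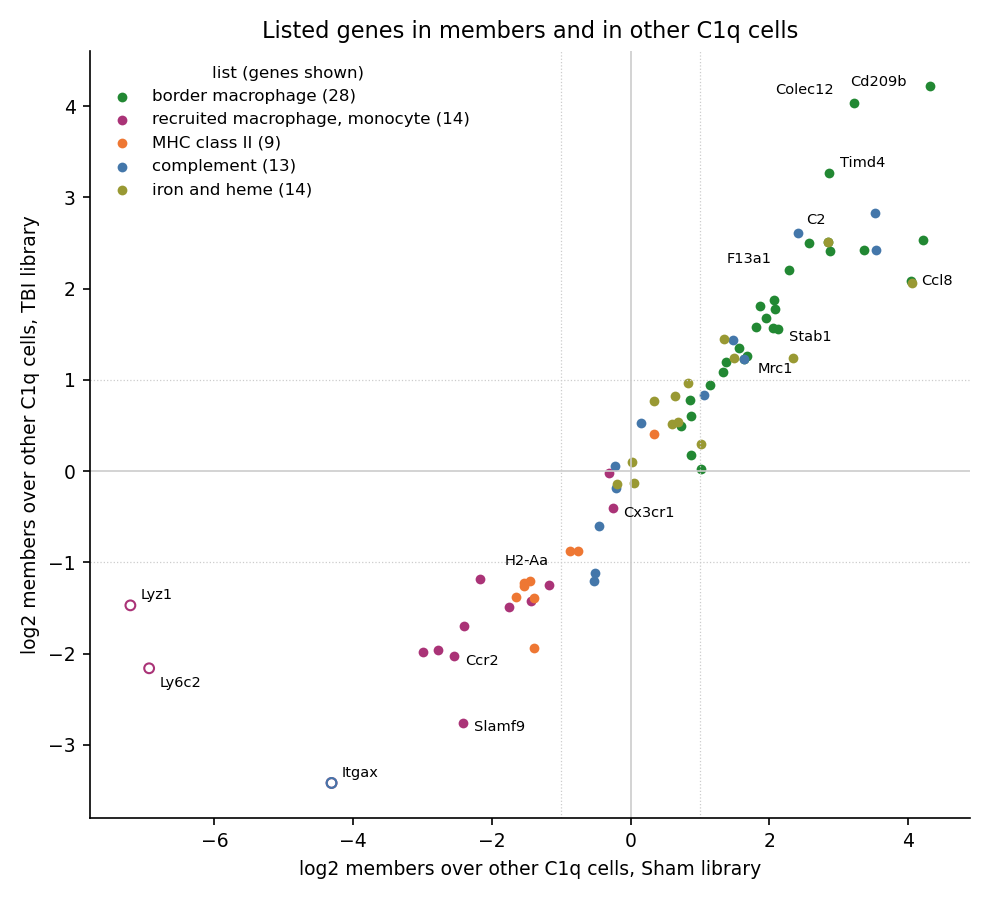
Log2 CPM ratio of members to other C1q cells in the Sham library (horizontal axis) and in the TBI library (vertical axis), for genes of 5 lists with at least 100 UMIs. Open symbols have under 3 UMIs in a sum, dotted lines mark 2-fold. Border macrophage genes lie to the upper right, with Cd209b at 4.31 and 4.22, and Ccr2 and Slamf9 to the lower left.

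The choice of 2 marker genes as the limit did not fall on a step in the other genes. In the TBI library Mrc1 stood at 500.4 CPM in C1q cells with none of the 5 marker genes, 1185 with 1, 1849 with 2, 1925 with 3, 2122 with 4 and 1821 with 5. Pf4 stood at 457, 1986, 3324, 3919, 3844 and 3702 CPM. F13a1 stood at 96.5, 643, 1274, 1745, 1807 and 1992 CPM. These 3 genes were already above the cells with none at 1 marker gene. In the Sham library Mrc1 stood at 463, 1024, 1910, 2855, 2107 and 1766 CPM with 0 to 5 marker genes, Pf4 at 367, 1890, 3036, 3973, 4112 and 3921, and F13a1 at 139, 690.5, 1338, 2079, 2180 and 1215. The median cell with 0 to 3 markers had 5391, 1618, 1939 and 1752 UMIs in Sham, so depth differed between these sets. When every cell was thinned to 1000 UMIs and its marker genes counted again, Mrc1 stood at 675, 2000, 1667 and 2000 CPM with 0 to 3 markers in Sham and at 832, 1878, 2093 and 2093 in TBI. Pf4 then stood at 769, 3750, 4389 and 3864 CPM in Sham and at 818, 3076, 4371 and 4370 in TBI. At equal depth most of the difference thus lay between cells with none and cells with 1.

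The 4 MHC class II genes H2-Aa, H2-Ab1, H2-Eb1 and Cd74 together, which present antigen to CD4 T cells, ran against them. Their sum in TBI cells with 0 to 5 marker genes was 102585, 69985, 39759, 34025, 39822 and 25574 CPM. In Sham it was 99118, 66338, 36072, 25500 and 16788 CPM for 0 to 4 markers and 38466 in the 9 cells with 5. Ccr2 stood at 758, 492, 189, 152, 121 and 61.1 CPM in TBI and at 898, 447, 168, 27.7, 45.8 and 275 in Sham. Cells with 2 or more markers had less of both than those with 1 or none in either library, the 9 Sham cells included. Thinned as above, the class II sum at 0 to 3 markers was 87051, 36250, 30111 and 15591 CPM in Sham and 95667, 49558, 29289 and 24278 in TBI. Thinned Ccr2 was at 701, 109, 139 and 0 CPM in Sham, no lower at 2 markers than at 1, and at 723, 234, 103 and 18.5 in TBI.

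**Figure D3:**
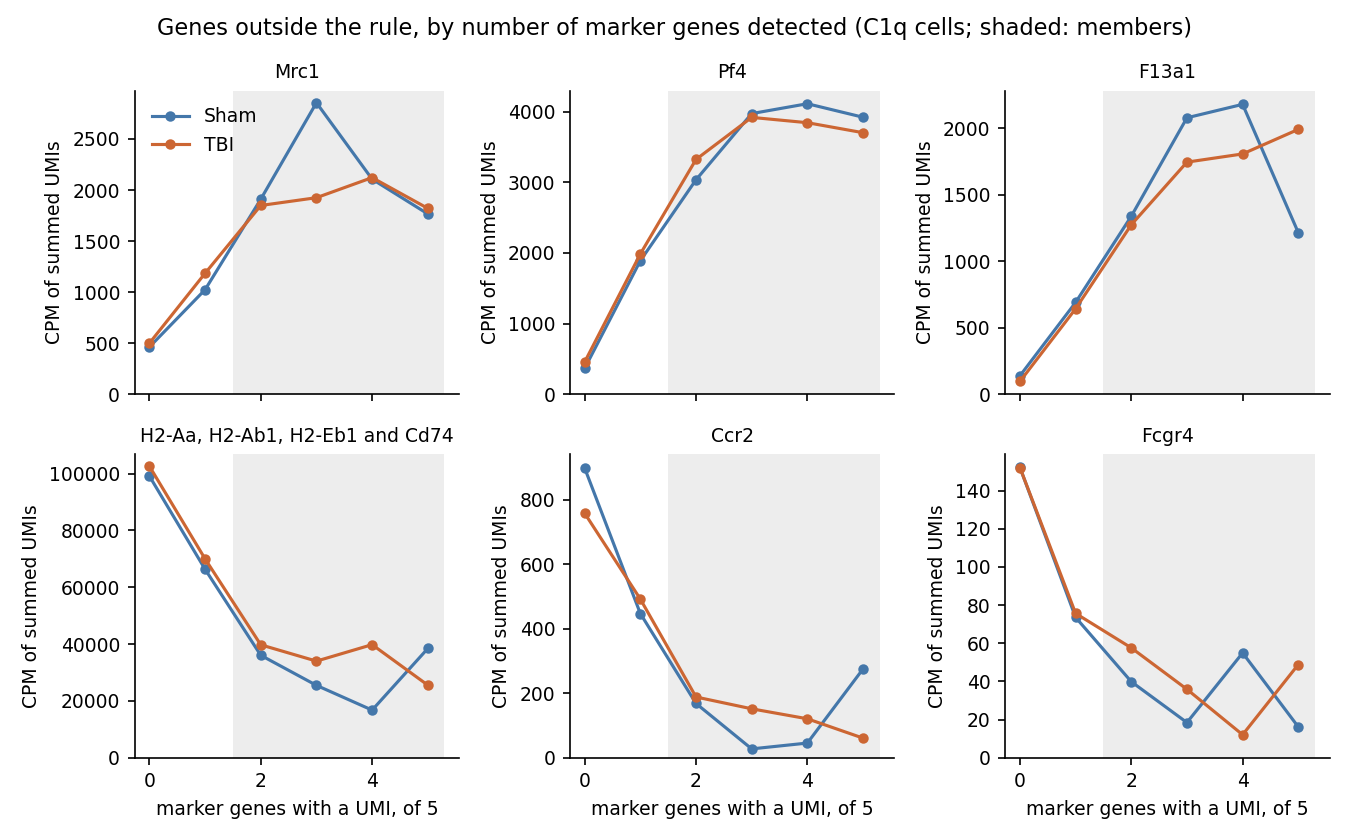
CPM of summed UMIs (vertical axes) in C1q cells by the number of the 5 marker genes with a UMI (horizontal axes), Sham blue and TBI orange, each point 1 sum over cells, the members shaded. Mrc1, Pf4 and F13a1 are lowest in cells with no marker gene, MHC class II, Ccr2 and Fcgr4 are highest there, and the points at 5 markers rest on 9 and 13 cells.

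Low as a group, MHC class II still varied widely from member to member. Of 9 measured genes of the class II pathway, 6 were lower past 2-fold than in the other C1q cells of both libraries (H2-Aa, H2-Ab1, H2-Eb1, H2-DMb1, Cd74 and Ciita, the activator of class II genes), beside 1.89% of all genes, with list medians of -0.95 in Sham and -1.26 in TBI. The costimulatory ligand gene Cd86 was above equality, with 0.34 and 0.41. In the median member the 4 class II genes took 0.430% of UMIs in Sham and 1.48% in TBI, against 7.48% and 8.38% in the other C1q cells. A UMI of them was found in 76.6% and 93.3% of the members. At or over 1% of UMIs were 52 of 128 Sham members (40.6%, 32.0 to 49.7) and 154 of 282 TBI members (54.6%, 48.6 to 60.5), and at or over 5% were 18.8% and 27.0%.

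The TBI members thus had class II over 1% in more cells, by intervals that overlap slightly. By these shares the other C1q cells moved the same way, with 75.5% in Sham and 85.9% in TBI at or over 1%. At or over 5% were 57.7% and 70.2% of them. Their pooled class II share stood nearly level, at 8.70% of summed UMIs in Sham and 8.82% in TBI. Since TBI members were deeper, the shares were taken again with each member thinned to 1000 UMIs, giving 45% and 58.0% over 1% and medians of 0.6% and 1.9%, beside 82.6% and 88.8% over 1% in the other C1q cells. The part of free class II RNA in these shares was not tested. The pooled sums differed less, with 2.99% of all member UMIs in Sham and 3.72% in TBI, as did the means over cells, 2.22% and 3.08%. In the sums, 5 cells held 39.2% of the Sham class II UMIs and 10.9% of the TBI ones. By gene, the log2 TBI over Sham ratio in the members was 0.41 (0.37 to 0.44) for Cd74, the invariant chain, 0.24 for H2-Aa and for H2-Eb1 and 0.05 (-0.03 to 0.13) for H2-Ab1. Over the 12 class II genes with at least 10 UMIs the median ratio was 0.02. Of the 12, 7 were above equality, beside 50.1% of 9218 genes, and 2 were lower past 2-fold, where 306 of 9218 genes were. With 1 pool of mice on each side these differences have no replicate check.

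**Figure D4:**
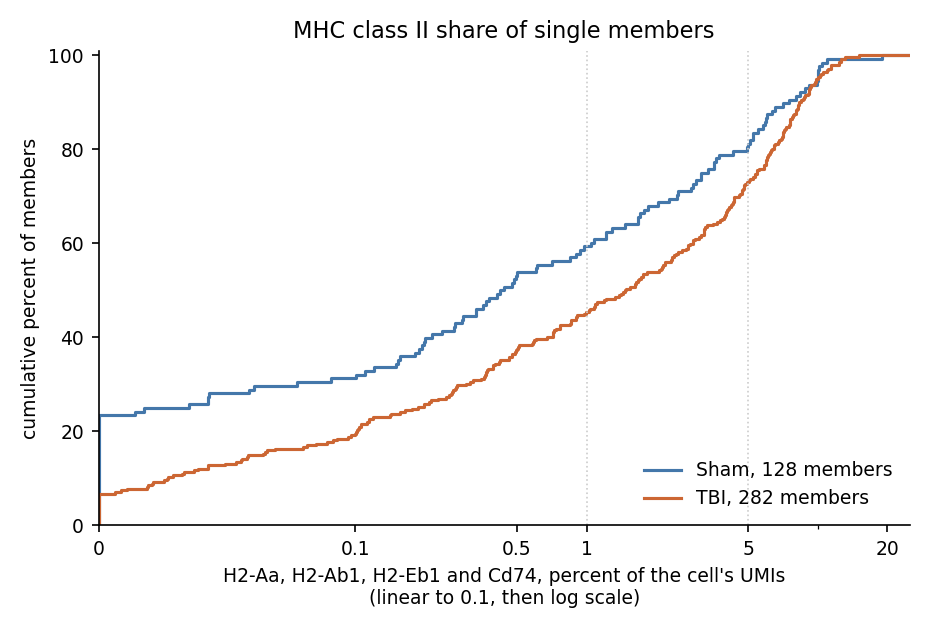
Cumulative percent of members (vertical axis) by the share of their UMIs from H2-Aa, H2-Ab1, H2-Eb1 and Cd74 (horizontal axis, linear to 0.1 and log beyond), for 128 Sham (blue) and 282 TBI (orange) members. The TBI curve lies to the right at the 1% and the 5% line, with medians of 1.48% against 0.430%.

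Members low and high in class II differed in other genes too. When the members of a library were ordered by their class II share and cut into 3 equal ranges (43 Sham or 94 TBI cells at each end), Lyve1 stood at 540.1 CPM in the lowest range against 93.2 in the highest in Sham, and at 248 against 85.9 in TBI. Ccr2 stood at 6.84 against 289 and at 8.55 against 305 CPM. Its values in the lowest range rest on 1 Sham and 3 TBI UMIs, at or under the floor of 3 UMIs. The median cell had 2207 UMIs in the lowest and 3728 in the highest range in Sham, and 2988 and 5563 in TBI. Stab1 stood at 2085 against 857 and at 1611 against 1061. In both libraries Lyve1 and Stab1 were thus higher, and Ccr2 lower, in the members with little class II. Folr2 differed less, at 704 against 470.5 CPM in Sham and 724 against 637 in TBI. Ccl8 had no common direction, at 985 against 3060 in Sham and 1172 against 347 in TBI, nor had Timd4, at 47.9 against 79.2 and 85.5 against 24.3. The ranges are cuts through a continuous share, with 5 Sham and 16 TBI cells near the upper cut, and are not types.

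Between the injury groups, the summed members of the 2 libraries differed by less than 2-fold in most genes. Of 2587 genes with at least 100 UMIs, 25 (0.966%) were higher and 15 (0.58%) lower past 2-fold in TBI, and the median over 9218 genes with at least 10 UMIs was 0.00. These counts rest partly on single cells, since 7 genes were lower past 2-fold without the cell that held most UMIs of each gene. The rule genes C1qa, C1qb, C1qc, Cbr2 and Folr2 had log2 TBI over Sham ratios of -0.17, 0.05, 0.02, 0.03 and 0.29, of which C1qa turned to 0.03 with at least 3 marker genes and Folr2 to -0.04 with every cell weighted equally. Lyve1 was at 226 CPM in Sham and 144 in TBI, -0.65 (-0.996 to -0.300), Cd209f at 1018 and 723, -0.50 (-0.65 to -0.34), and Cd209g at 477 and 309.96, -0.62 (-0.86 to -0.39). All 3 were lower in the TBI members, within 2-fold.

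The wider list of border macrophage genes was a little lower in the TBI members. Of 26 genes with at least 100 UMIs, 4 were above equality, beside 49.1% of the 2587 genes. Of the 26, 13 had intervals wholly below it and none wholly above, where 7.42% and 7.77% of the 2587 genes had. Past 2-fold 2 were lower (Ccl8 and Fcna), beside 0.58% of the 2587 genes. The median over the 29 genes with at least 10 UMIs was -0.21, against 0.00 over all genes in the members and 0.14 for the list in the other C1q cells, the difference between which was not tested. Cd163 had -0.37 (-0.63 to -0.11). Mrc1 had -0.15 (-0.26 to -0.05) and Stab1 -0.14 (-0.27 to -0.01), which turned to 0.05 and 0.24 with every cell weighted equally. Pf4 at 0.02 (-0.06 to 0.10) and Gas6 at 0.14 (-0.03 to 0.30) stood level. The lectin gene Cd209b had -0.67, the ectoenzyme gene Cd38 -0.70 and Colec12 -1.18 (-1.78 to -0.57) at 46 and 51 UMIs. The microglia markers were lower as well. Of 8 with at least 100 UMIs, 1 was above equality, 6 had intervals wholly below it and 1 wholly above. Their median over 10 genes with at least 10 UMIs was -0.44, and 0.04 in the other C1q cells. The part of microglia in the lower border macrophage list was not tested.

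Among the 15 genes lower past 2-fold in TBI were 3 of the 10 measured chemokine genes (Ccl8, Ccl24 and Cxcl9), beside 0.58% of 2587 genes. Of the 10, 5 were above equality, 3 had intervals wholly above it and 3 wholly below, beside 49.1%, 7.77% and 7.42%. Ccl8 (chr11:82115185-82116799, GRCm38), a monocyte-attracting chemokine, was at 2258 CPM in Sham and 794 in TBI members, 1140 and 1004 UMIs, a log2 ratio of -1.51 (-1.63 to -1.38). In the other C1q cells it stood at 137 and 187 CPM, a ratio of 0.45 (0.17 to 0.75), with 64.1% and 57.0% of those UMIs in 5 cells. Among the other C1q cells with at least 2 of Ccr2, Cx3cr1 and Fcgr4 it stood at 52.0 and 27.6 CPM, so outside the members it had no common direction. Ccl24, an eosinophil-attracting chemokine, stood at 452 and 197 CPM in the members, -1.20 (-1.46 to -0.93). Few cells carried much of both. Without the cell that held most, the ratios were -1.30 for Ccl8 and -0.91 for Ccl24, the latter within 2-fold. Under another setting Ccl24 reached -0.66. The 5 members with most Ccl8 held 55.7% of its UMIs in Sham and 25.6% in TBI, while 54.7% and 48.9% of the members had at least 1 (36% and 32.7% of those thinned to 1000 UMIs). For Ccl24 the 5 members with most held 61.0% and 21.7%, and 37.5% and 39.0% had at least 1 (21% and 17.5% of the thinned). The share of cells with a UMI thus differed much less than the sums. B cells had 0 UMIs of Ccl8 in Sham and 35 in TBI, and 0 and 12 of Ccl24. The 35 lay in 1.18% of the TBI B cells, and the part of doublets and free RNA in them was not tested.

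Other chemokine genes did not follow. Ccl12 was at 351 CPM in Sham and 526 in TBI members, 0.58 (0.34 to 0.83), Ccl9 at 97.1 and 175, 0.84 (0.40 to 1.33), and Ccl6 at 515 and 675, 0.39 (0.19 to 0.60). Pf4 was level. The 3 were higher in TBI within 2-fold. Cxcl9, an interferon-induced chemokine, had the lowest ratio of the 2587 genes (-3.70), but 85.4% of its UMIs in the Sham members came from 1 cell. Ccr1, a receptor for several of these ligands, stood at 151 and 58.5 CPM (-1.36, -1.85 to -0.88). Its ratio ran from -1.62 to -0.65 under other settings, the latter within 2-fold.

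Among the rest of the 15 lower genes, 3 were hemoglobin genes (Hba-a1, Hba-a2 and Hbb-bs), which were lower past 2-fold in B cells too. The iron exporter gene Slc40a1 was at 250 CPM in Sham and 121 in TBI members, -1.05 (-1.39 to -0.69), and the ficolin gene Fcna at 105 and 42.7, -1.30 (-1.87 to -0.72). Siglech, a lectin of microglia and plasmacytoid dendritic cells, had -1.81 (84 and 60 UMIs), and Nrp2, a neuropilin receptor, -1.05. With at least 3 marker genes neither passed 2-fold, at -0.64 for Siglech and -0.58 for Nrp2. The others were AY036118, Gbp2, Thoc2 and Tgfbr1. No other gene of the 15 was lower past 2-fold in B cells, but Ccl8, Ccl24, Cxcl9, Fcna and Slc40a1 had 0 UMIs in Sham B cells and could not be. In the other C1q cells 5 of the 15 were lower past 2-fold, and 7 in all were below equality. The rest were above it there, among them Slc40a1 (0.94) and Nrp2 (1.11, 0.25 to 2.18, at 12 and 62 UMIs). For 4 of the 15, 1 cell held over 25% of the UMIs.

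Many of the 25 genes higher in TBI members belong to other cell types. Of them 13 were higher past 2-fold in B cells as well, and for 9 a single cell held over 25% of the UMIs. The collagen genes Col1a1 (2.11) and Col1a2 (2.98), Dcn (2.42), Igfbp5 (2.82) and Mgp (1.43) are genes of fibroblasts, and Ttr (4.59) and Enpp2 (4.18, 2.82 to 6.69, at 3 and 158 UMIs) of the choroid plexus. The 10 fibroblast markers summed to 365 CPM in Sham and 1182 in TBI members, against 35.2 and 511 in B cells. Sparc, which encodes a matrix protein made by fibroblasts and by microglia and stands on the list of microglia markers, had 2.82 in the members and -0.31 (-0.68 to 0.08) in the other C1q cells, where the fibroblast markers had a median of 1.45. In Sham members 2 of the 10 (Lum and Pdgfra) were at 0, in TBI none, with Serpinf1 (71 UMIs) and Mgp (442 UMIs) the most abundant and 54.0% of the TBI UMIs in 5 cells. The 7 choroid plexus and pineal markers summed to 57.5 and 1400 CPM, of which Ttr was 51.5 and 1264, and 5 cells held 93.1% of those in TBI. Without the 17 TBI members that were predicted doublets, 10 genes were higher past 2-fold in place of 25, and the ratios were 0.88 for Ttr, 0.89 for Col1a1, 1.55 for Col1a2, 1.79 for Igfbp5 and 1.90 for Sparc. Most of the Ttr difference was thus in those cells. The part of free RNA in the rest was not tested.

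Genes of macrophages or of most cells were also among the 25. Ifit3, an interferon-induced gene, was at 67.4 CPM in Sham and 158 in TBI members, 1.21 (0.70 to 1.80), with a UMI in 11.7% and 23.0% of members, and in 4% and 8.95% of those thinned to 1000 UMIs. Its ratio was 1.17 in the other C1q cells and 2.64 in B cells, at 6 and 35 UMIs there. Klf2, a transcription factor that restrains activation of macrophages, stood at 103 and 216 CPM, 1.06 (0.63 to 1.52), with a UMI in 19.5% and 33.3%, and in 5% and 11.3% of the thinned. In the other C1q cells it had a ratio of 0.09 and in B cells of -0.32. Klf2 also stands on the list of early response genes, which digestion of tissue can induce. Its member ratio fell within 2-fold under another setting, as given under the dependence on processing. Fxyd5, a regulator of the sodium pump, stood at 164 and 357 CPM, 1.11 (0.78 to 1.48), with ratios of -0.18 in the other C1q cells and 0.66 in B cells. Slc38a2, an amino acid transporter, stood at 35.7 and 108 CPM (1.57), Id3, a transcriptional inhibitor, at 27.7 and 84.6 (1.57), and Ccnd2, cyclin D2, at 27.7 and 79.1 (1.47). In the other C1q cells their ratios were 0.87, 2.35 and -0.14. The member ratio of Ccnd2 ran from 0.57 to 2.57 under other settings, the former within 2-fold. Without predicted doublets the ratios were 1.16 for Ifit3, 1.00 for Klf2 and 0.80 for Fxyd5. Il1b had 12 UMIs in Sham and 91 in TBI members, of which 1 cell held 38.5%, and was found in 3.91% and 7.45% of the members.

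**Figure D5:**
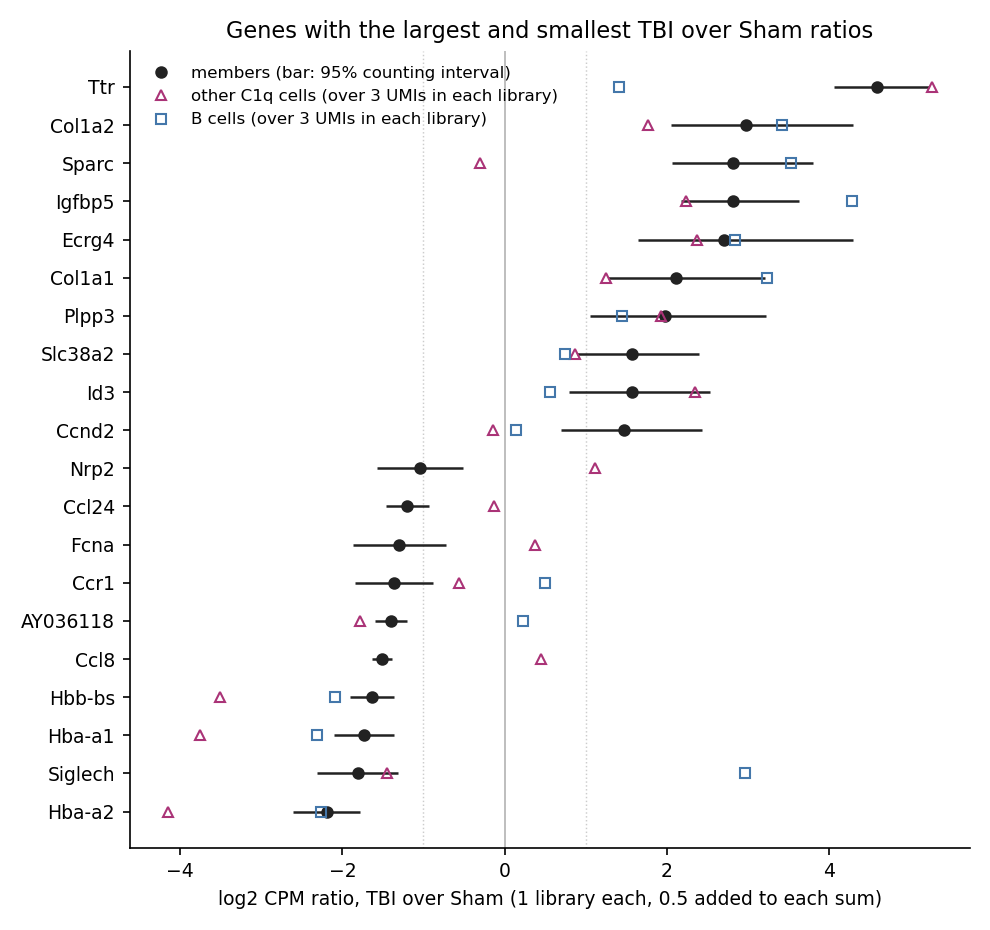
Log2 CPM ratio of TBI to Sham (horizontal axis, 0.5 added to each sum) for the 10 genes with the largest and the 10 with the smallest ratio among those with at least 100 UMIs in the members and a UMI in at least 10% of the members of the library where they were higher, a limit that leaves out Enpp2, Dcn, Ly6a, Il1b, Cxcl9 and Gbp2 (black, with 95% counting intervals), beside other C1q cells (triangles) and B cells (squares) where each library had over 3 UMIs. Collagen genes and Ttr are higher and hemoglobin genes lower in B cells as well, while Ccl8 is lower in the members (-1.51) and not in the other C1q cells (0.45), where 5 cells held 64.1% (Sham) and 57.0% (TBI) of its UMIs.

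Interferon-stimulated genes as a list leaned higher in TBI members. Of 57 genes with at least 10 UMIs, 40 (70.2%) were above equality with a median of 0.26, beside 50.1% of 9218 genes, and of 34 with at least 100 UMIs 25 were above it, 8 with intervals wholly above and 3 wholly below, beside 49.1%, 7.77% and 7.42% of the 2587 genes. Isg15, a ubiquitin-like modifier, had 0.59 (0.25 to 0.96), which ran from 0.0058 with the rule on thinned cells to 1.21 with members thinned before summing. Ifitm3, which blocks virus entry, had 0.29 (0.17 to 0.42) and Ifi27l2a 0.17 (0.03 to 0.31), the last turning to -0.13 when the rule was applied to thinned cells. Against these, Bst2 (tetherin) had -0.37 (-0.52 to -0.23) and Ly6e -0.25 (-0.33 to -0.16). Past 2-fold, 2 of the 34 were higher (Ifit3 and Ly6a) and 1 lower (Gbp2, -1.07), beside 0.966% and 0.58% of the 2587 genes. The list's median in the other C1q cells was 0.14. Within a library the members differed little from the other C1q cells on this list, with no gene of 53 higher and 2 lower past 2-fold (Rsad2 and Phf11b), beside 2.36% and 1.89% of all genes.

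Lysosomal genes leaned the other way, with 4 of 26 (15.4%) above equality, beside 50.1% of all genes, and a median of -0.10. In the other C1q cells 17 of the 26 were above it, with a median of 0.06. The cathepsin gene Ctsd was at 1416 CPM in Sham and 1049 in TBI members, -0.43 (-0.57 to -0.30), and Ctsb, another cathepsin, at 4543 and 4540.3. Only part of the list thus differed. Scavenger and efferocytosis genes had a median of -0.24, and this list shares Mrc1, Cd163, Stab1 and other genes with the border macrophage list. The recruited macrophage list had a median of 0.25, with Ccr2 at 0.32 (-0.09 to 0.76), but with at least 3 marker genes the median was -0.099 and with the rule on thinned cells 0.03. Of 11 proliferation genes with at least 10 UMIs, 1 was above equality and 2 were lower past 2-fold, where 306 of 9218 genes were, with a median of -0.13, and none of the 4 with at least 100 UMIs passed 2-fold. Early response genes, which digestion of tissue can induce, had a median of 0.22 in TBI over Sham, with Fos at 85.2 and 169 CPM (0.98, 0.51 to 1.50). Of the 26 measured of these, 21 were below equality in the members against the other C1q cells of both libraries, beside 23.7% of 5554 genes.

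The most abundant genes were of several kinds. Among genes other than ribosomal protein and mitochondrial ones, the predicted gene Gm42418 was at 35333 CPM in Sham and 21663 in TBI, Apoe, the lipid carrier, at 26133 and 21942, the invariant chain Cd74 at 16590 and 21997, and Ftl1, the ferritin light chain, at 15669 and 15580. Tmsb4x, which encodes the actin-binding thymosin beta 4, followed at 15419 and 13625 CPM and Lyz2 at 10946 and 13360. Selenop, which encodes a selenium carrier, was at 5511 and 6105 CPM in the members against 2163 and 2780 in the other C1q cells, and was the gene among the 15 most abundant that most favoured the members, with ratios of 1.35 and 1.13.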

How the data were processed

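Single-cell RNA-seq of the dorsal meninges gave 1 library for Sham and 1 for TBI. The authors deposited a matrix of UMI counts per gene and barcode for each, made against mm10 with Cell Ranger (2.1.1 in the submitters' processing notes, 3.1.0 in the matrix header). The same notes name Seurat 3.9.9. The counts were used as deposited, and the UMIs of all cells in a population of 1 library were added up per gene and scaled to their total (CPM). Ratios are log2 of CPM with 0.5 added to each sum, with 95% intervals from exact binomial limits. The floor for a count of 0 was 3 UMIs, 5.94 CPM in Sham and 2.37 in TBI members. Genes were compared with at least 100 UMIs, and list medians used genes with at least 10. Past 2-fold was used to describe and is not a test. Cells thinned to 1000 UMIs were drawn with a fixed seed.

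The members, the 29 gene lists and the comparisons were chosen with earlier results of these data known. Named genes were the listed genes with at least 50 UMIs in the members that were highest in level or ratio in their list, the 10 largest and 10 smallest TBI over Sham ratios and the 12 largest and 12 smallest ratios to the other C1q cells (with a UMI in at least 10% of the cells where the gene was higher), and the 15 highest levels. Further genes past 2-fold in TBI over Sham, and those in Results flagged for a closer look, were named after their values were seen. Doublets were predicted by simulating 2 artificial doublets per cell and scoring each cell by its 40 nearest neighbours. The cells with the highest scores were called, up to an assumed rate of 0.8% per 1000 cells. That rate and the number of cells fixed how many were called, 33 in Sham and 114 in TBI, with 0 and 17 members among them. They were kept, and left out in an alternative. The libraries shared 20 barcodes, 0 of them among Sham and 3 among TBI members. Alternatives covered the marker and C1q limits, thinning, gene minimum, weighting of cells, hemoglobin limit, doublets and the cell with most UMIs of a gene. Promoters were RefSeq sequences of GRCm38.p6, and gene positions are of GRCm38. Scripts used Python 3.11.15, numpy 2.4.6, scipy 1.17.1, pandas 2.3.3, scikit-learn 1.9.0 and matplotlib 3.10.9, and the ratio and interval functions were tested on simulated data.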

Additional observations from a re-analysis of the deposited data

Results flagged for a closer look

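Cells outside the comparisons met the rest of the rule among barcodes left out for over 5% hemoglobin UMIs, 2 in Sham and 1 in TBI. They were not counted among the members.

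For 11 genes the TBI over Sham ratio in the members and in the other C1q cells had opposite signs, with both intervals off 0. Each had at least 100 UMIs in the members and at least 100 in the other C1q cells. Nrp2, at 12 and 62 UMIs in the other C1q cells, was under that minimum and is not counted. Its ratios also had opposite signs, -1.05 and 1.11 (0.25 to 2.18). The difference between the populations was not tested, each rests on 1 library per group, and both populations come from the same 2 libraries. Below 0 (members minus other C1q cells, log2) were Cxcl9 (-3.94), Ccl8 (-1.96), the scavenger receptor gene Msr1 (-1.90), Mcfd2 (-1.13), the proteoglycan gene Sdc4 (-1.11) and the mitochondrial ribosome gene Mrpl57 (-1.09). Above 0 were the calcium-binding protein gene S100a6 (1.02), Ahnak (1.07), Fxyd5 (1.29), the actin crosslinker gene Flna (1.54) and Ly6a (3.67). Ccl8 went from 2258 to 794 CPM in the members and from 137 to 187 in the other C1q cells, where 5 cells held 64.1% and 57.0% of its UMIs, while Ly6a went from 27.7 to 94.1 and from 306 to 78.8, with 26.9% of its TBI member UMIs in 1 cell. The member ratios of S100a6, Ahnak, Flna, Ly6a and Sdc4 turned sign under at least 1 other setting, as given under the dependence on processing, so their opposite direction rests on the settings used. For Cxcl9, 85.4% of the Sham member UMIs were in 1 cell.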

How the results depend on the processing

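The results were computed again under up to 15 other settings (7 for the members' shares, 14 for ratios to the other C1q cells and 13 for the TBI over Sham ratios of single genes), 2 of which (shared barcodes left out, and only members with at least 1000 UMIs) were chosen after seeing the data. No paired analysis was possible because the groups share fewer than 2 replicate numbers, with 1 library each, and no library could be left out. Of 51 gene ratios of TBI to Sham, 35 kept their sign under all 13 settings. Those of C1qb, C1qc, Cbr2, F13a1, H2-Ab1 and Pf4, whose intervals held equality, changed sign under at least 1 setting, between -0.21 and 0.28, and 10 turned as given below. Ratios of Ccl8 ran from -1.58 to -1.02, of Ccl24 from -1.55 to -0.66, of Fcna from -1.37 to -0.85, of Lyve1 from -0.72 to -0.44, of Cd209f from -0.55 to -0.36, of Cd209g from -0.73 to -0.50, of Ifit3 from 1.07 to 1.77 and of Klf2 from 0.49 to 1.22. The border macrophage list's TBI over Sham median ran from -0.26 to -0.13, that of interferon-stimulated genes from 0.10 to 0.38 and that of recruited macrophage genes from -0.099 (at least 3 marker genes) to 0.56. The difference in the members' share of filtered cells ran from 0.776 to 2.07 points, and of C1q cells from -2.16 to 0.337.

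The counts of genes past 2-fold moved most. With the rule on thinned cells, 12 genes were higher in TBI and 80 higher in the members than in other C1q cells, and with at least 3 marker genes 12 were higher and 9 lower in TBI. Without predicted doublets 10 were higher, and without the top cell of each gene 7 were lower. A minimum of 50 UMIs gave 76 higher and 27 lower in TBI, and one of 200 gave 7 and 7, with 82 higher and 66 lower against other C1q cells, as other numbers of genes were compared. With every cell weighted equally, 53 were higher in TBI and 83 in the members. With members thinned before summing, 3 and 3 passed in TBI and 35 and 35 against other C1q cells, where fewer UMIs left fewer genes to compare.

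The border macrophage medians of members over other C1q cells in Sham and TBI were 1.67 and 1.40 with the rule on thinned cells, 1.62 and 1.43 with at least 3 marker genes, 2.67 and 2.17 with at least 1, and 1.36 and 1.32 with cells weighted equally, and in Sham 1.36 with thinning before summing. The Sham class II median against other C1q cells was -1.503 with stricter C1q limits and -1.48 with cells weighted equally. It was -1.61 without the top cells and -1.47 with thinning before summing. The class II median of TBI over Sham, 0.02 in the main setting, ran from -0.07 with the rule on thinned cells to 0.42 with cells weighted equally. With at least 1 marker gene the interferon median against other C1q cells in TBI was -0.50 and the recruited macrophage one in Sham -1.69, the latter -3.17 with cells weighted equally. Other causes were not tested.

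Turned ratios of TBI over Sham were Ifi27l2a (-0.13) with the rule on thinned cells, C1qa (0.033) and S100a6 (-0.23) with at least 3 marker genes, and Ahnak (-0.049), Flna (-0.14) and Ly6a (-0.65) with at least 1. With cells weighted equally they were Folr2 (-0.037), Mrc1 (0.047) and Stab1 (0.24), and with thinning before summing Flna (-0.22), Mrc1 (0.13) and Sdc4 (0.017). A level under 5.94 CPM in Sham and 2.37 in TBI members was under 3 UMIs, which limits what can be said of low genes.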

Other observations

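Some genes of receptors for antibody (Fc receptors) also differed between the members and the other C1q cells. Of 7 measured Fc receptor genes, 2 were higher past 2-fold in the members of both libraries and 1 was lower, where 2.36% and 1.89% of all 5554 genes were. Fcrls, an Fc receptor-like gene shared with microglia, was the clearest, at 1615 CPM in Sham and 1394 in TBI members against 434 and 535 in the other C1q cells. The neonatal Fc receptor gene Fcgrt followed at 826 and 687 against 318 and 300.3 CPM. Fcgr4, an activating receptor, was lower, at 35.7 and 41.9 against 123.15 and 118 CPM. The activating receptor genes Fcgr1 (0.25 and 0.18) and Fcgr3 (0.41 and 0.41) and the inhibitory Fcgr2b (0.34 and 0.29) had log2 ratios nearer to equality.

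Of 21 measured myeloid transcription factor genes, 1 was higher past 2-fold in both libraries (Maf) and 2 were lower (Runx3 and Batf3), beside 2.36% and 1.89% of all genes. Maf stood at 1048 and 901 CPM in the members against 417 and 425, log2 ratios of 1.33 and 1.08. Of 20 measured receptors for growth and survival signals, Cd200r1, an inhibitory receptor, was higher past 2-fold (1.77 and 1.47), and Csf2ra, a chain of the GM-CSF receptor (-1.45 and -1.13), and Pilra were lower. Among 26 lysosomal genes none passed 2-fold in both libraries. Abca1, a cholesterol exporter, was the 1 gene of 14 measured for lipid handling that did, at 1.23 and 1.12. Counts of 1 gene in a list are near the share over all genes, and none of these differences was tested.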
